A study of Homo sapiens with 9 samples.

Results

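The interferon-induced and Schlafen genes were followed in BT-549, an established human line of mesenchymal triple-negative breast cancer cells, after transfection of a microRNA mimic. The set held every gene with a single platform symbol that matched interferon-related names: the RIGI-like and toll-like receptors, the IRF, IFIT, IFITM, IFI, GBP, HERC and TRIM families named here, single antiviral effectors such as EIF2AK2, MX2 and RSAD2, and the Schlafen family (SLFN). The brightest feature stood for each gene, which gave 57 genes of the 14884 tested, each with 1 feature. IFI6, IFI16, IFI27, OAS1, OAS2, OAS3, MX1 and GBP1 were not analysed here. Cells received a miR-150-5p mimic, a non-specific negative control small RNA, or the lipid reagent alone (mock). Each small RNA was used at 50 nM, the medium was replaced at 24 h, and total RNA was taken at 72 h. All 9 samples are of 1 cell line, with 3 samples per group, each on an Affymetrix Human Gene 2.0 ST array. No label states whether a group's samples are separate cultures, and the p-values therefore cover the variation among these arrays, part or all of which may be technical.

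Cells sense foreign RNA and DNA through cytoplasmic receptors such as RIGI and through toll-like receptors in the endosome or at the surface. Their signals activate IRF3 and IRF7, which switch on the interferon genes. Secreted interferon then acts through the JAK kinases to bring IRF9 to a promoter motif, the interferon-stimulated response element (ISRE), of many antiviral genes. A basal level of many of these genes is known in tumour lines without added interferon. Short double-stranded RNA delivered with lipid can itself be seen by these receptors, which is why a control small RNA and a reagent-only arm bear on this gene set. The Schlafen genes are a vertebrate family, partly interferon-induced, whose members act on transcription, tRNA and DNA replication stress.

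4 of the 57 genes were lower after the mimic than after the negative control: SLFN5, IFITM1, IFITM3 and ISG15. SLFN5 and IFITM1 were also lower than in mock cells, and none of the 57 was higher in either comparison. Of these 4, the promoters of IFITM1, IFITM3 and ISG15 were in the sequence table used. They are shown for that reason. Each carries the letters of an ISRE close to the annotated start. The stretches are RefSeq sequence of GRCh38.p14, from the gene's own strand and 5′ to 3′. The IFITM1 stretch is chr11:313920-314039 on the plus strand, the IFITM3 stretch is chr11:320861-320980 on the minus strand, and the ISG15 stretch is chr1:1013377-1013496 on the plus strand. Capitals mark matches to the ISRE core GAAANNGAAA or to TTCNNNGAA, the GAS motif of interferon gamma signalling.
IFITM1: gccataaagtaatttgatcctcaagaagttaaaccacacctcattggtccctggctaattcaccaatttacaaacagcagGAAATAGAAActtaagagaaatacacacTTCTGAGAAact
IFITM3: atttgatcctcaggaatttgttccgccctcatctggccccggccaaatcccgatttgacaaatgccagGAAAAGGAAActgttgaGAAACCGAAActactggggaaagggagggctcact
ISG15: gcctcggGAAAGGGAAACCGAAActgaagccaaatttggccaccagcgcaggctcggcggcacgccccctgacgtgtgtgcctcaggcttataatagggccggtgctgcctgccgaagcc

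The ISRE match of IFITM1 began 40 bases before the start and its GAS match 12 bases before it. IFITM3 held an ISRE match at 52 and another at 35 bases before the start. The ISG15 matches began 113 and 107 bases before the start and overlapped, so they form a single run. Over the 250 bases before the start, searched on both strands, the ISRE letters stood in 14 of the 40 genes of the set with a promoter in the table (35.0%), against 839 of all 27305 promoters (3.07%). The GAS letters stood in 9 of the 40 (22.5%), against 1850 of all promoters (6.78%). These are letter matches and not measured binding.

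The signal itself limits what the arrays could show. Values are log2 signals, and since probes differ in brightness, levels of different genes were not set against each other except by their place among all genes. 15 of the 57 genes lay at or above the median gene, at a mean log2 signal of 3.34, and the other 42 lay below it. Of those 42, 26 lay below the 25th percentile of all genes, at 2.22. All 4 genes that fell were among the brighter 15. Brightness was the mean over all 9 arrays, and IFITM3 averaged 3.22 on the mimic arrays, below the median gene. In 42 of the 57 genes (73.7%) at least 1 value was repeated to the last digit between arrays, as in 8384 of all genes (56.3%), and IRF9 had only 4 distinct values over 9 arrays. Such repeats can narrow the spread that the test sees.

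**Figure D1:**
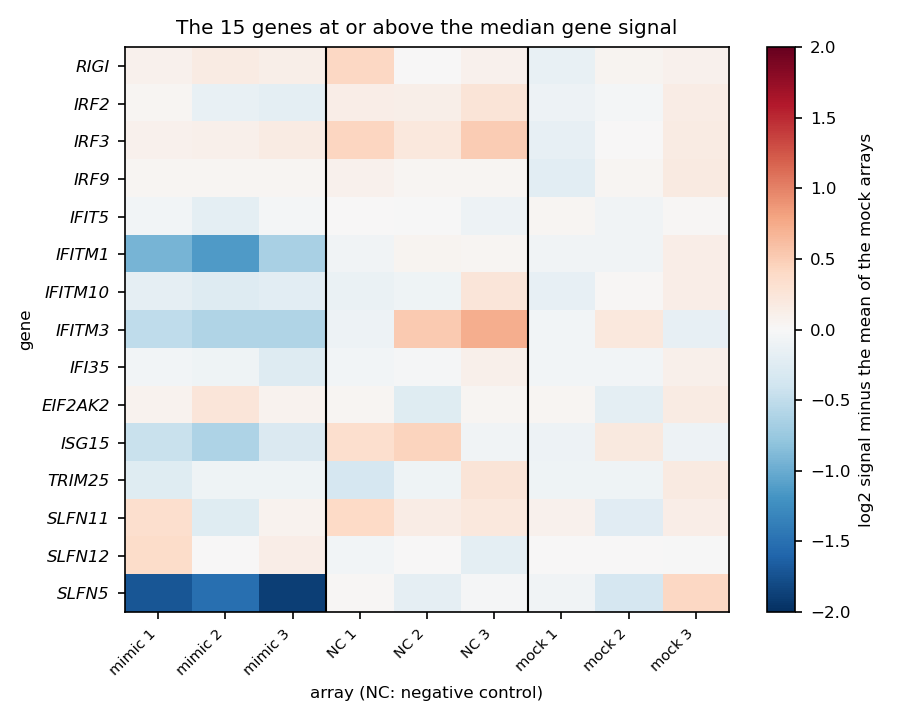
Log2 signal on each of the 9 arrays, as the difference from the gene's mean over the mock arrays (colour), for the 15 genes at or above the median gene signal, with columns for mimic, negative control (NC) and mock arrays. SLFN5 and IFITM1 are low on all 3 mimic arrays, and IFITM3 is low there and high on negative control arrays 2 and 3.

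Against the negative control, the 4 genes that passed the test in limma (adjusted p under 0.05 over all 14884 genes) were 7.02% of the set, where 1.42% of all genes fell. The set was chosen with earlier results of these data known, so the shares here and against mock describe it and do not test it. Probes of IFITM1 and IFITM3 can share signal, and the calls of IFITM3 and ISG15 were lost when any single mimic array was left out. The count of genes that rose was 0 of 57, where 1.76% of all genes rose. Of the 15 brighter genes 4 fell (26.7%), against 2.47% of all genes of that brightness. IFITM3 is 1 of these 4 only through its control arrays, so this share is not free of the difference itself. By weaker criteria the whole set stood near all genes, but 42 of the 57 lay below the median signal. An unadjusted p under 0.05 was reached by 12 of the 57 (21.1%, against 16.0% of all genes), and the mimic and negative control arrays did not overlap for 11 (19.3%, against 18.6%). Of the 15 brighter genes 7 reached such a p, against 1914 of the 7442 genes of that brightness. For 8 of the 15 the arrays did not overlap, against 2081 of 7442. The brighter part thus stood above genes of like signal. Among the 42 dimmer genes the counts were 5 and 3. The median difference over the 57 genes was -0.06 on the log2 scale, with 41 of them (71.9%) below 0. Over all genes the median was -0.0044 and 51.3% lay below 0. This share varied with signal: it was 41.9% of genes at or above the median and so more than 51.3% of dimmer genes. Most of the set is dim, so 51.3% is not a like background for it. Of the 15 brighter genes of the set 86.7% lay below 0, and of the 42 dimmer ones 66.7%.

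Against mock, 2 of the 57 genes fell (3.51%), where 1.62% of all genes fell, and 0 rose, where 2.28% of all genes rose. Among the 15 brighter genes 2 fell (13.3%), against 2.84% of all genes of that brightness. An unadjusted p under 0.05 was reached by 7 genes (12.3%, against 17.5%), and 8 had arrays that did not overlap (14%, against 20.2%). Of the 15 brighter genes 4 reached such a p and 5 did not overlap, against 2121 and 2281 of the 7442 genes of that brightness. Both comparisons use the same 3 mimic arrays, so their counts are not independent of each other.

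**Figure D2:**
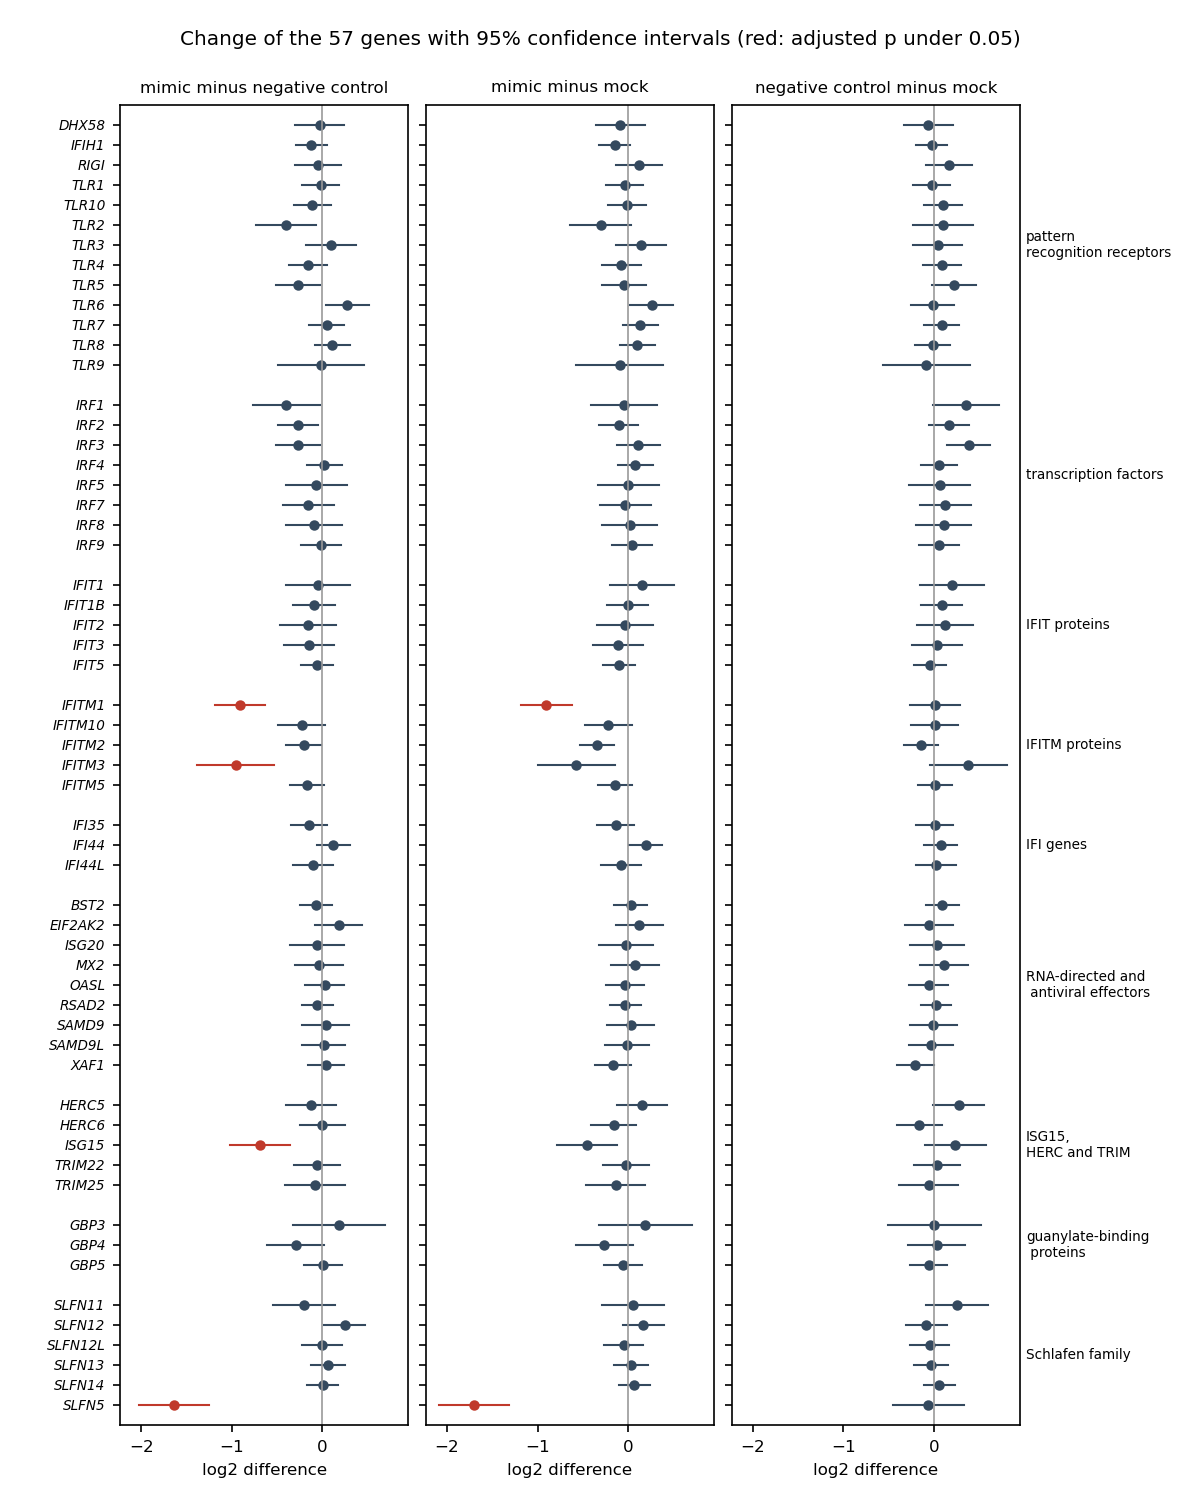
Log2 difference of each of the 57 genes with its 95% confidence interval (limma, 3 arrays per group), in mimic minus negative control, mimic minus mock and negative control minus mock, with genes grouped by role. Red marks an adjusted p under 0.05, reached by 4 genes in the first comparison, 2 in the second and 0 in the third.

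The sensing receptors did not pass the test. Of the 13 measured, RIGI, which binds short double-stranded RNA with a 5′ triphosphate, had the highest mean signal. RIGI read 4.25, 4.31 and 4.27 on the mimic arrays, 4.57, 4.17 and 4.25 on the negative control arrays, and 4.01, 4.21 and 4.25 on the mock arrays. The 3 groups overlapped, and mimic minus negative control was -0.05 ± 0.114 (log2, standard error from limma), with a 95% interval of -0.30 to 0.21. IFIH1, the sensor of long double-stranded RNA also known as MDA5, had a mean log2 signal of 1.76, which was higher than that of only 7.65% of all genes. TLR3, the endosomal receptor for double-stranded RNA, averaged 2.09 ± 0.162 in mimic cells, 1.99 ± 0.112 in negative control cells and 1.95 ± 0.195 in mock cells (SD, n = 3 each). The 10 toll-like receptors read between 1.56 and 3.40 on every array. The largest difference among the 13 was that of TLR2, a surface receptor for bacterial lipoproteins, at -0.40 ± 0.149 against the negative control (adjusted p = 0.22) and -0.30 against mock (adjusted p = 0.34). TLR6, its partner, differed by 0.28 and 0.26 (adjusted p = 0.23 in each comparison).

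The interferon regulatory factors did not pass the test either. IRF2, which competes with IRF1 on shared promoters, was the brightest of the 8 measured. It read 6.85, 6.66 and 6.62 on the mimic arrays, 6.94, 6.93 and 7.07 on the negative control arrays, and 6.71, 6.77 and 6.95 on the mock arrays. All mimic arrays lay below all negative control arrays and overlapped with mock, with differences of -0.27 (adjusted p = 0.21) and -0.10 (adjusted p = 0.67). IRF3, the factor that the sensors activate, read 4.86, 4.88 and 4.94 on the mimic arrays, 5.21, 4.99 and 5.29 on the negative control arrays, and 4.61, 4.78 and 4.94 on the mock arrays. Here the negative control arrays stood above both other groups. Mimic minus negative control was -0.27 (adjusted p = 0.26) and mimic minus mock was 0.12 (adjusted p = 0.66).

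IRF1, a factor induced by interferon gamma, averaged 3.06 ± 0.249 in mimic cells, 3.45 ± 0.129 in negative control cells and 3.10 ± 0.287 in mock cells. Its difference of -0.40 from the negative control (adjusted p = 0.27) was the largest of the 8, and it differed from mock by -0.04. IRF7 and IRF9, which binds the ISRE, differed from the negative control by -0.15 (adjusted p = 0.62) and -0.01 (adjusted p = 0.98). Of the 8 factors, 7 lay below 0 in mimic minus negative control and 3 of 8 in mimic minus mock, while all 8 lay above 0 in negative control minus mock. The negative control arrays enter the first and the last of these counts.

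The IFIT proteins bind foreign RNA ends and block its translation, and IFIT1, IFIT2 and IFIT3 are among the most interferon-responsive genes known. IFIT1, IFIT1B, IFIT2 and IFIT3 read between 1.55 and 2.29 on every array of every group, below the 25th percentile of genes by their means. IFIT1 read 1.93, 2.29 and 1.72 on the mimic arrays, 2.23, 1.93 and 1.93 on the negative control arrays, and 1.61, 1.93 and 1.93 on the mock arrays. The groups overlapped, and mimic minus negative control was -0.05 ± 0.157. IFIT2 and IFIT3 differed from the negative control by -0.16 and -0.15, and from mock by -0.03 and -0.11. IFIT5, the family member with the highest mean signal, averaged 4.42 ± 0.078 in mimic cells, 4.48 ± 0.060 in negative control cells and 4.52 ± 0.058 in mock cells. None of the 5 passed the test.

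The IFITM proteins sit in cell membranes and hinder the fusion of enveloped viruses, IFITM1 mainly at the surface and IFITM3 mainly in endosomes. IFITM1 read 4.14, 3.93 and 4.42 on the mimic arrays, against 5.00, 5.13 and 5.11 on the negative control arrays and 5.00, 5.00 and 5.20 on the mock arrays. Every mimic array lay below every control array, and the control groups overlapped. Relative to the negative control, IFITM1 fell by 0.91 ± 0.123 log2 units (1.88-fold lower, adjusted p = 0.0054). Against mock it fell by 0.90 (1.87-fold lower, adjusted p = 0.0056).

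IFITM3 read 3.28, 3.19 and 3.18 on the mimic arrays, against 3.69, 4.31 and 4.52 on the negative control arrays and 3.74, 4.00 and 3.63 on the mock arrays. Every mimic array lay below every control array, and the negative control arrays were widely spread. IFITM3 fell by 0.96 ± 0.190 against the negative control (1.94-fold lower, adjusted p = 0.028). Its difference from mock was -0.57 (adjusted p = 0.14), with a 95% interval of -0.998 to -0.15. The call against the negative control was lost when any single mimic array was left out, with an adjusted p of up to 0.096. It was also lost without negative control array 2 (adjusted p = 0.072), negative control array 3 (0.084) or mock array 1 (0.054).

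IFITM2, a close copy of IFITM3, read 2.92, 2.92 and 3.10 on the mimic arrays, 3.21, 3.12 and 3.22 on the negative control arrays, and 3.33, 3.40 and 3.23 on the mock arrays. Mimic arrays again lay below both controls, with differences of -0.21 (adjusted p = 0.27) and -0.34 (adjusted p = 0.058). IFITM10 differed by -0.23 and -0.22, and IFITM5, a bone-specific member, by -0.16 and -0.15. All 5 measured members were thus below 0 against each control, of which 2 passed the test against the negative control and 1 against mock. IFITM1, IFITM2 and IFITM3 are near-identical over parts of their sequence, so signal from one can reach the probes of another, and their separate values are uncertain.

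**Figure D3:**
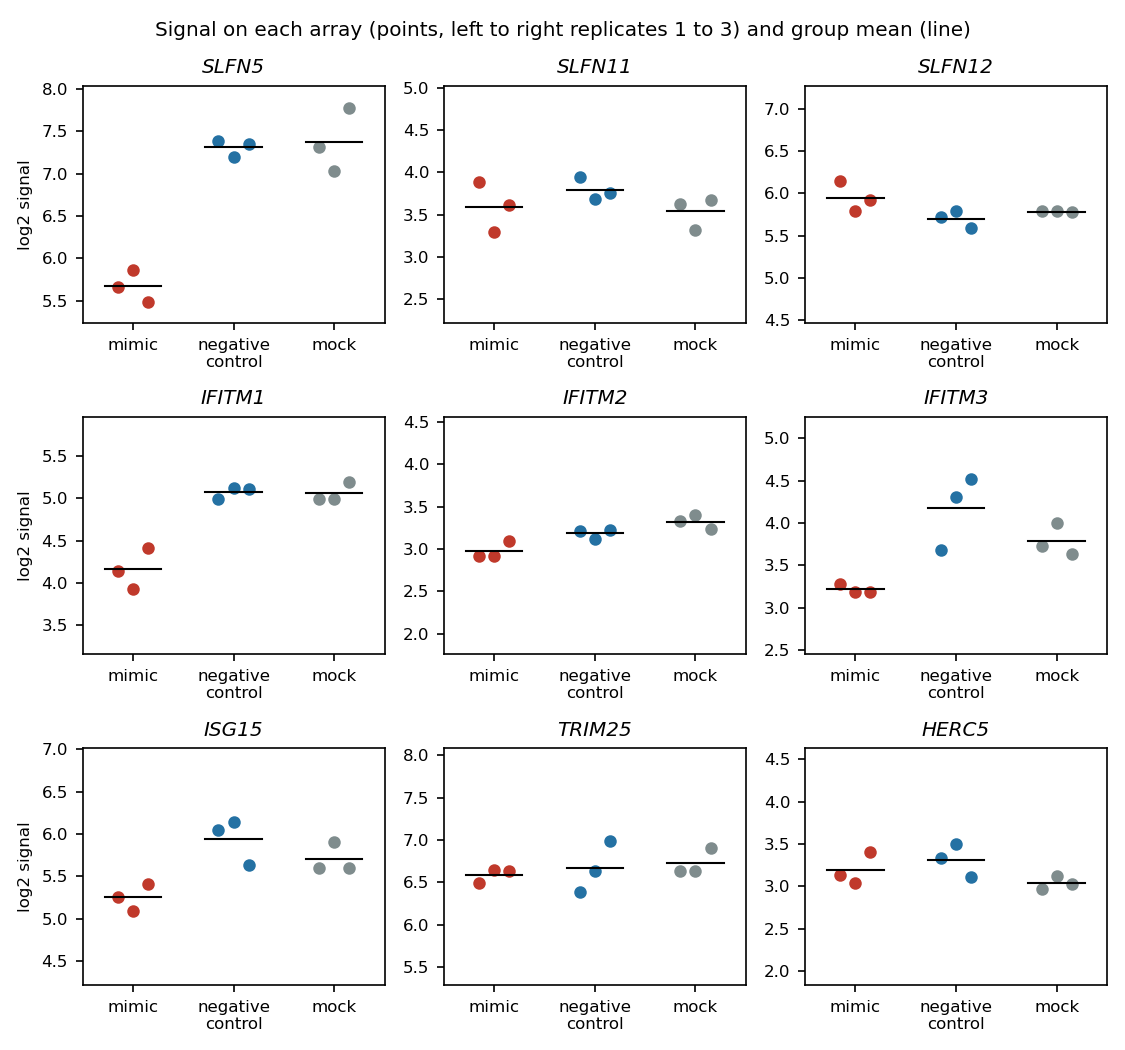
Log2 signal of SLFN5, SLFN11, SLFN12, IFITM1, IFITM2, IFITM3, ISG15, TRIM25 and HERC5 on each array of the mimic, negative control and mock groups, with points for arrays and a line for the group mean (n = 3). The vertical axes cover different levels but equal lengths in log2 units, and for SLFN5, IFITM1, IFITM2, IFITM3 and ISG15 all mimic points lie below all points of either control group.

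ISG15 is a ubiquitin-like protein that is coupled to other proteins and is also secreted. It read 5.26, 5.09 and 5.41 on the mimic arrays, against 6.04, 6.14 and 5.63 on the negative control arrays and 5.60, 5.90 and 5.60 on the mock arrays. The mimic arrays were the lowest of the 9, and the control groups overlapped. ISG15 fell by 0.69 ± 0.149 against the negative control (1.61-fold lower, adjusted p = 0.04). Against mock the difference was -0.45 (adjusted p = 0.14). The call against the negative control was lost on leaving out any single mimic array, negative control array 1 or 2, or mock array 1 or 3, with an adjusted p of up to 0.13.

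The enzymes of the ISG15 pathway were measured beside it. HERC5, the ligase that couples ISG15, read 3.13, 3.05 and 3.40 on the mimic arrays, 3.34, 3.50 and 3.11 on the negative control arrays, and 2.97, 3.12 and 3.03 on the mock arrays. Mimic and negative control overlapped, with a difference of -0.12 (adjusted p = 0.70), and mimic minus mock was 0.15 (adjusted p = 0.61). UBA7, the activating enzyme, differed by 0.06 (adjusted p = 0.75) and 0.01 (adjusted p = 0.96). UBE2L6, the conjugating enzyme, averaged 3.88 in mimic cells, 4.58 in negative control cells and 4.08 in mock cells. Its differences of -0.70 from the negative control (adjusted p = 0.091) and -0.20 from mock (adjusted p = 0.66) did not pass. USP18, which removes ISG15 and blocks the interferon receptor, differed by -0.47 (adjusted p = 0.22) and -0.32 (adjusted p = 0.38). TRIM25, a ubiquitin ligase for RIGI and the brightest of the HERC and TRIM genes, differed by -0.08 (adjusted p = 0.85) and -0.14 (adjusted p = 0.71).

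The remaining effectors gave no call. EIF2AK2, the RNA-activated kinase PKR that halts translation, read 6.59, 6.76 and 6.59 on the mimic arrays, 6.56, 6.28 and 6.56 on the negative control arrays, and 6.56, 6.32 and 6.68 on the mock arrays. Mimic arrays lay above the negative control and overlapped with mock, with differences of 0.18 (adjusted p = 0.52) and 0.13 (adjusted p = 0.66). The other 8 effectors, among them MX2, OASL, RSAD2 and ISG20, read between 1.67 and 3.40 on every array. BST2, which tethers budding virus to the cell, averaged 1.72 in mimic cells, 1.79 in negative control cells and 1.69 in mock cells. IFI35 was the brightest of the 3 IFI genes and differed by -0.15 (adjusted p = 0.50) and -0.14 (adjusted p = 0.50). IFI44 had the largest difference of the 3 from mock. It read 1.84, 1.65 and 1.77 on the mimic arrays, 1.64, 1.63 and 1.63 on the negative control arrays, and 1.47, 1.63 and 1.57 on the mock arrays. All mimic arrays lay above all control arrays, by 0.12 (adjusted p = 0.54) and 0.20 (adjusted p = 0.24) in the means, at a signal above that of only 4.07% of genes. IFI44 and IFI44L stayed between 1.47 and 2.08 on every array. GBP3, GBP4 and GBP5, interferon-induced GTPases, read between 1.45 and 2.53, and GBP4 had the largest difference, at -0.29 (adjusted p = 0.35) and -0.26 (adjusted p = 0.39).

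SLFN5 had the largest change of the 57 genes. This nuclear Schlafen protein is interferon-induced and is known to repress transcription of viral and cellular genes. SLFN5 read 5.66, 5.86 and 5.49 on the mimic arrays, against 7.39, 7.19 and 7.35 on the negative control arrays and 7.31, 7.03 and 7.78 on the mock arrays. Every mimic array lay more than 1 log2 unit below every control array, and the control groups overlapped. SLFN5 fell by 1.64 ± 0.175 against the negative control (3.12-fold lower, 95% interval -2.03 to -1.25, adjusted p = 0.002). Against mock it fell by 1.70 (3.25-fold lower, adjusted p = 0.0014). In a culture assayed whole, fewer cells that express a gene and less RNA per cell cannot be told apart.

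The other Schlafen genes did not pass the test. SLFN12, a ribonuclease that PDE3A-binding drugs switch on, read 6.14, 5.78 and 5.92 on the mimic arrays, 5.72, 5.78 and 5.59 on the negative control arrays, and 5.78, 5.78 and 5.77 on the mock arrays. Mimic arrays met the controls at 1 shared value, and the differences were 0.25 (adjusted p = 0.26) and 0.17 (adjusted p = 0.45). SLFN11, which blocks stalled replication forks and sensitises tumour cells to DNA damage, read 3.88, 3.29 and 3.61 on the mimic arrays, 3.94, 3.69 and 3.75 on the negative control arrays, and 3.62, 3.32 and 3.67 on the mock arrays. The mimic arrays overlapped with both controls, with differences of -0.20 (adjusted p = 0.60) and 0.06 (adjusted p = 0.91), and the negative control arrays lay just above the mock arrays. SLFN12L, SLFN13 and SLFN14 read between 1.59 and 2.04 on every array, and SLFN13, which cleaves tRNA, differed by 0.06 and 0.03.

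The Schlafen genes lie side by side on chromosome 17, and the position of SLFN5 among them was read from the RefSeq gene order. Among the 5 protein-coding genes on each side of SLFN5, 8 were measured. SLFN11, SLFN12, SLFN13, SLFN12L and SLFN14 follow it on one side and none of the 8 passed the test against the negative control, with differences between -0.20 and 0.41. Against mock, NLE1, a ribosome assembly factor on the other side, rose by 0.65 (adjusted p = 0.039). IFITM5, IFITM2, IFITM1 and IFITM3 lie next to each other on chromosome 11, and the nearby PKP3, SIGIRR and ANO9 differed from the negative control by -0.08, -0.23 and 0.02 with adjusted p between 0.29 and 0.94. The 6 measured neighbours of ISG15 did not pass in either comparison with the mimic.

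**Figure D4:**
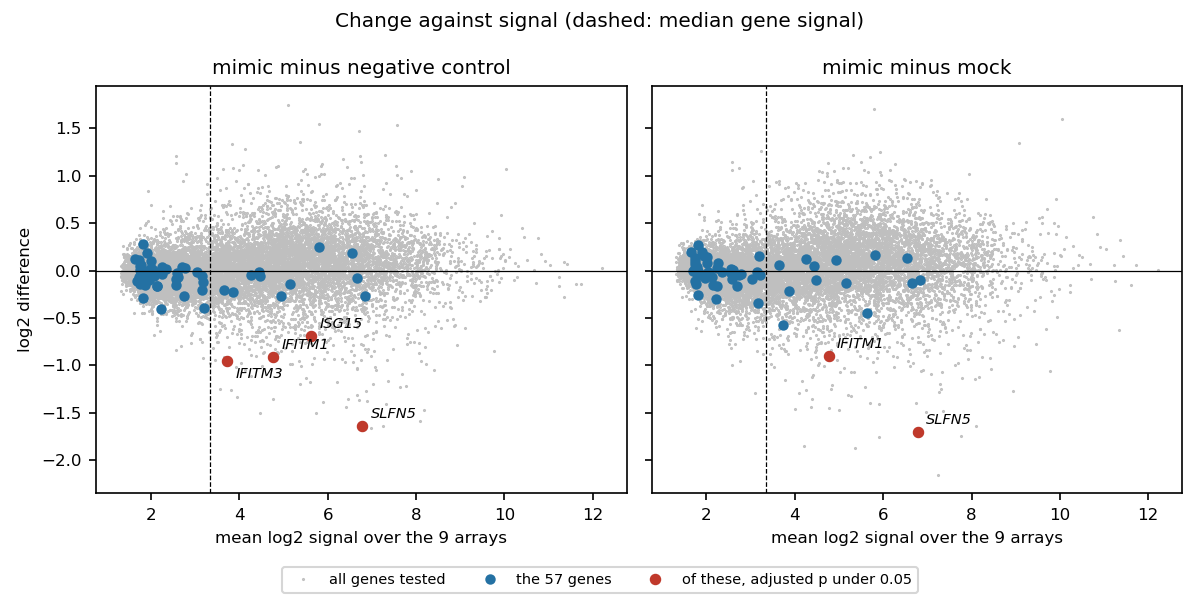
Log2 difference (vertical) against mean log2 signal over the 9 arrays (horizontal) for all 14884 genes in grey and the 57 genes in blue or, with an adjusted p under 0.05, in red, for mimic minus negative control and mimic minus mock. The dashed line marks the median gene signal of 3.34, and all red points lie to its right.

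For the genes that did not pass, the 95% intervals give a range for each gene taken alone. They are not adjusted for the number of genes, so some may miss the true difference. Several exclude 0 on either side, such as those of IRF2 (-0.49 to -0.05) and TLR6 (0.04 to 0.52) against the negative control. Another is that of IFITM2 against mock (-0.53 to -0.15). Against the negative control the intervals of the other 53 genes had a median half-width of 0.24 log2 units, and the widest bounds were -0.76 (IRF1) and 0.70 (GBP3). Against mock, the bounds over 55 genes were -0.998 (IFITM3) and 0.70 (GBP3). Genes read near the floor of the array can change without a change in signal, so these bounds apply to the signal.

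Negative control against mock asks what an unrelated small RNA did beyond the reagent. Of the 57 genes 0 fell and 0 rose in negative control minus mock by limma, where 0.477% of all genes fell and 0.168% rose. An unadjusted p under 0.05 was reached by 2 genes, IRF3 and XAF1 (3.51%, against 11.0% of all genes). The arrays of the 2 groups did not overlap for 4 genes, IFITM2, IRF3, SLFN11 and XAF1 (7.02%, against 12.0%). IRF3 differed by 0.38 ± 0.108 (adjusted p = 0.20) and XAF1, a partner of XIAP in cell death, by -0.20 (adjusted p = 0.44). The genes that fell after the mimic differed here by -0.06 for SLFN5, 0.01 for IFITM1, 0.38 for IFITM3 and 0.24 for ISG15, with adjusted p of 0.94, 0.98, 0.51 and 0.64. The widest bounds over the 57 genes were -0.56 (TLR9) and 0.81 (IFITM3).

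The rest of the pathway was read from lists of genes outside the set. None of the 21 interferon ligands listed was measured with a single symbol. Over all genes 1.42% fell and 1.76% rose against the negative control, and 1.62% fell and 2.28% rose against mock. At such shares a count of 0 is common in lists this short. The counts of 0 below therefore do not show that the pathway was unchanged. Of 16 interferon receptors, kinases and brakes 8 were measured and 0 passed in any comparison. JAK1, the kinase shared by the interferon receptors, averaged 9.56 in mimic cells, 9.48 in negative control cells and 9.47 in mock cells. SOCS3, an inhibitor of JAK signalling, differed from the negative control by -0.69 (adjusted p = 0.078) and from mock by -0.40 (adjusted p = 0.29). JAK2 differed by 0.24 (adjusted p = 0.17) and -0.20 (adjusted p = 0.25). Of these 8 genes 3 lay above 0 against each control. Of 22 genes that relay the sensors' signal 15 were measured and 0 passed. UNC93B1, which escorts the endosomal toll-like receptors, differed by -0.50 (adjusted p = 0.10) and -0.52 (adjusted p = 0.074). MAVS, the adaptor of RIGI and IFIH1, differed by -0.18 and 0.21 (adjusted p = 0.68 and 0.60). MYD88 differed by -0.11 (adjusted p = 0.82) and 0.40 (adjusted p = 0.26). Of these 15 genes 4 lay above 0 against the negative control and 8 against mock. Of 18 antigen presentation genes 4 were measured, all 4 lay below 0 against each control, and 0 passed. Over all genes 51.3% lay below 0 against the negative control and 49.8% against mock. Both comparisons share the mimic arrays. B2M, the light chain of MHC class I, differed by -0.32 (adjusted p = 0.19) and -0.33 (adjusted p = 0.16).

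Of 50 other interferon-induced genes 30 were measured, and 1 passed the test, in mimic minus negative control. In that comparison 1.76% of all genes rose and 1.42% fell, so 1 call among 30 does not set this list apart. WARS1, the tryptophanyl-tRNA synthetase, which interferon gamma induces, averaged 5.37 in mimic cells, 4.48 in negative control cells and 5.29 in mock cells. It rose by 0.89 ± 0.201 against the negative control (adjusted p = 0.047) and differed from mock by 0.08 (adjusted p = 0.90). Averaging the features of the gene gave 0.47 (adjusted p = 0.092), and the call was lost on leaving out any single mimic or negative control array or mock array 1, with an adjusted p of up to 0.15. CARS1, GARS1 and MARS1, which encode other tRNA synthetases, also rose against the negative control, where 1.76% of all genes rose. None of them passed against mock, and GARS1 was lower in negative control than in mock cells by the same test. WARS1 differed by -0.81 in negative control minus mock (adjusted p = 0.14). The synthetase genes were not counted as a list here. Whether the rise of WARS1 is tied to interferon was not tested. DTX3L, a ubiquitin ligase paired with PARP9, differed by -0.54 (adjusted p = 0.069) and -0.51 (adjusted p = 0.073). OGFR differed by 0.28 (adjusted p = 0.69) and 0.72 (adjusted p = 0.20), the largest difference of this list from mock. The median difference of the 30 genes was -0.03 against each control, and 12 of them lay above 0 in each comparison.

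The ISRE letters were set beside the changes. Of the 14 genes of the set with an ISRE match 3 fell against the negative control and the median difference was -0.09. Of the 26 with a promoter but no match 0 fell and the median was -0.05. Against mock 1 of the 14 fell, IFITM1, and 0 of the 26. Over all tested genes with an ISRE match, 7 of 276 fell against the negative control (2.54%) and 5 against mock (1.81%). Of genes with a promoter and no match, 1.41% and 1.72% fell. The 276 genes include the 14, so IFITM1, IFITM3 and ISG15 are among the 7, and IFITM1 is among the 5. These shares are therefore not separate from the counts within the set. Within the set, the falls of IFITM3 and ISG15 make up the difference between the comparisons, and they were lost under several of the alternatives. The remaining 17 genes of the set, SLFN5 among them, had no promoter in the table. Only 4 of the 14 and 7 of the 26 reached the median gene signal. With the ISRE match but no call, HERC5 and BST2 had the values given above, and both lay below the median gene. IFIT5, with matches 45 and 19 bases before the start, lay above the median gene. It differed by -0.06 from the negative control (adjusted p = 0.78) and by -0.10 from mock (adjusted p = 0.60).

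Array quality and identity were checked over all genes. Array medians lay between 2.43 and 2.48, correlations were 0.981 to 0.989 within groups and 0.977 to 0.986 between them, and no array stood apart. Of 8 mesenchymal markers 4 were measured (VIM, FN1, ZEB1 and TWIST1), and all lay above the median gene. Their mean log2 signal was 7.07 to 7.23 on mimic arrays, 7.18 to 7.38 on negative control arrays and 7.65 to 7.75 on mock arrays, so it moved with the groups. ZEB1 averaged 6.70 in mimic cells, 7.06 in negative control cells and 7.28 in mock cells. It fell against each (adjusted p = 0.036 and 0.0043), as did TWIST1 (adjusted p = 0.011 and 0.0038). VIM averaged 8.68 in mimic cells, 8.58 in negative control cells and 9.01 in mock cells, and FN1 averaged 8.65, 8.44 and 9.185. VIM and FN1 were thus higher after the mimic than after the negative control, lower than in mock cells, and passed in no comparison. Blood cell markers, of which 5 of 13 were measured and 2 (CD68 and NCAM1) lay above the median gene, averaged 3.44 to 3.67 on mimic arrays, 3.81 to 3.84 on negative control arrays and 3.61 to 3.72 on mock arrays, and 0 of the 5 passed the test. Of 10 luminal epithelial markers 8 were measured and 3 lay above the median gene: KRT18 at the 95.8 percentile of genes, GATA3 at 81.2 and KRT8 at 57.2. ESR1, PGR, FOXA1, EPCAM and KRT19 lay below it. The luminal list averaged 3.28 to 3.46 on mimic arrays, 3.45 to 3.64 on negative control arrays and 3.40 to 3.61 on mock arrays, and 0 of the 8 passed. TCF4, the 1 plasmacytoid dendritic cell marker measured of 4, lay at the 89.1 percentile and did not pass. The 3 endothelial markers measured, of 5, all lay below the median gene. The part of these shifts in the changes of the 57 genes was not tested.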

How the data were processed

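Total RNA was measured on 9 arrays. The authors deposited log2 signals, computed with RMA per the submitters' processing notes. RMA subtracts background, equalises the distributions of the arrays and combines the probes of a feature into 1 value. No source used here gives its version. Of 53617 features, 16098 had 1 symbol in the platform table. The feature with the highest mean stood for each gene, with no filter on signal.

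All 14884 genes were tested with limma 3.58.1 (R 4.3.3; lmFit, eBayes) on all 9 arrays with 1 mean per group, giving 6 residual and 9.6 total degrees of freedom. Two-sided p-values received a Benjamini-Hochberg adjustment across all genes in each comparison, with a threshold of 0.05. The script was tested on simulated data. The number of arrays limits the precision. All 57 gene IDs matched RefSeq, and 40 of the 57 genes had an entry in the RefSeq promoter table used (GRCh38.p14). The labels name a small-RNA labelling kit (FlashTag), and its use on whole transcripts is not explained there.

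The members and lists were chosen with earlier results of these data known. Named genes were those called, the brightest and most changed of each role group, and fixed anchors of the pathway. Other genes without a call, such as SOCS3, UNC93B1, B2M and DTX3L, were named outside that rule and do not stand for their lists. Replicate numbers did not pair mimic arrays with control arrays (correlations of deviations -0.29 to -0.05). For negative control and mock they were 0.15 to 0.23 for every pair, so by the values alone those may share a batch.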

Additional observations from a re-analysis of the deposited data

How the results depend on the processing

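In mimic minus negative control, the 4 calls became 2, SLFN5 and IFITM1, with all features of the array adjusted together, with only the 6 arrays compared, with the replicate block, or at an adjusted p under 0.01. Leaving out 1 array at a time gave 2 to 4 calls. It gave 2 without mock array 1, negative control array 2 or any single mimic array. IFITM3 and ISG15 were the calls lost, with adjusted p of 0.05 and 0.078 under the block and of 0.096 and 0.11 with all features. SLFN5 and IFITM1 passed in all 20 alternatives in both comparisons with the mimic, at log2 differences of -1.74 to -1.55 and -1.04 to -0.80 against the negative control. Against mock the count stayed between 2 and 3. IFITM2 joined under array weights (adjusted p = 0.043) and IFITM3 without negative control array 1 (0.039). In negative control minus mock the count was 0 under every alternative, the replicate block included, and no direction of a called gene turned. Over all genes, 473 calls against the negative control became 180 with all features, 251 with 6 arrays and 292 under the block, and 96 in negative control minus mock became 61 under the block. Centring arrays on their medians left 36 rather than 41 of the 57 genes below 0 against the negative control, and 28 rather than 35 against mock, where the median turned to 0.00046. The causes of these shifts were not tested beyond what each alternative changes. Depth has no meaning for arrays, and the limit is signal: 42 of the 57 genes lay below the median gene.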
